A study of Monodelphis domestica and Mus musculus with 2 samples.

Results

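L5NP cells are the neurons of primary visual cortex (V1) that carry the deposited subclass label for layer 5 near-projecting neurons. Their members were the segmented cells inside the marked V1 regions that passed the deposited quality filter, carried the subclass label L5NP and had the class label glutamatergic. In all there were 98 such cells among 200608 segmented cells, 39 in a gray short-tailed opossum (Monodelphis domestica) and 59 in a mouse (Mus musculus). The study profiled spatial gene expression with Stereo-seq, in which RNA with a poly(A) tail is captured on an array of barcoded positions under the section, and each molecule is then assigned to a position and, after segmentation, to a cell. One 10 µm section came from 1 adult male opossum of 6 months and one from 1 adult male wild-type C57BL/6J mouse of about postnatal day 40, and neither animal had received a treatment. Hemispheres were embedded together, and 3 V1 regions of the opossum section and 4 of the mouse section are marked in the files. The regions of a species come from 1 animal and are not replicates. Levels are given as unique molecular identifiers (UMIs, that is, counted RNA molecules) per 10000 UMIs of the same cells.

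Near-projecting neurons are excitatory neurons of deep layer 5 whose axons stay close to the cell body, in contrast to intratelencephalic neurons, which project within the forebrain, to pyramidal tract neurons (L5PT), which project below it, and to corticothalamic neurons of layer 6 (L6CT), which project to the thalamus. In mouse cortex they are rare and are usually recognised by Tshz2, a teashirt-family zinc finger transcription factor, together with Nxph3, a secreted neurexophilin that binds neurexins at the synapse. The labels were assigned from gene expression, by the nearest neighbours of each cell in a single-nucleus atlas of the same species, so gene levels of the labelled cells are given as a description and were not tested. Depth in the cortex, the cells around each L5NP cell and UMIs per cell were not used for the label. With 1 animal per species no difference has a replicate check, and no p-value is given. All intervals are 95% intervals that cover counting error only.

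The opossum section held 80369 segmented cells with 84570416 UMIs, and the mouse section 120239 cells with 147861707 UMIs. The RNA integrity number was lower in the opossum (7.1) than in the mouse (above 9). The V1 regions held 4806 opossum and 9127 mouse cells past the filter, and the 2 sections shared 0 cell barcodes.

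L5NP made up 1.44% (Clopper-Pearson interval 1.02 to 1.96) of the 2711 opossum cells with a glutamatergic class and subclass label, and 1.11% (0.845 to 1.43) of the 5322 such mouse cells. The 2 intervals overlapped. In the opossum regions the share was 1.40%, 1.61% and 1.28%, from 15, 15 and 9 cells. In the mouse regions it was 0.863%, 0.835%, 0.916% and 1.84%, from 17, 8, 10 and 24 cells. In the mouse, region 4 had the highest share, with an interval (1.19 to 2.73) that overlapped those of the other 3, and without it the share was 0.870%.

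Depth was measured from the top of the V1 regions. The paper starts these at layer 2/3, so the top of a region is not the surface of the cortex. In the opossum, L5NP-labelled cells occupied a narrow band in the deep cortex. Their median depth, scaled to the tallest region, was 630.0 µm (order-statistic interval 591 to 650), between L5PT at 552 µm (535 to 577) and L6CT at 691 µm (681 to 697). Of the 39 cells, 33 lay deeper than the L5PT median and 35 lay above the L6CT median. Their interquartile range, 586 to 661 µm, was the narrowest of the 6 opossum glutamatergic subclasses, at 75.5 µm against 106 to 270 µm in the others. The region medians were 647, 630.0 and 600 µm, and in each region they lay between the L5PT and the L6CT median of that region.

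In the mouse, L5NP cells were centred near the middle of the V1 regions and were widely spread. Their median depth was 397 µm (346 to 449), beside L5PT at 423 µm (414 to 433) and L5IT, the intratelencephalic neurons of layer 5, at 426 µm (404 to 446). The interval of the L5NP median held both of those medians. The interquartile range ran from 278 to 503 µm, and its width of 225 µm was the second widest of 8 subclasses, behind L6b at 394 µm, whereas that of L5PT was 62.5 µm. Of the 59 cells, 9 lay within the interquartile range of L5PT, 13 lay above the L4 median and 6 lay below the L6CT median. The region medians were 415, 486, 369 and 379 µm. With the labels of the first and second rounds alone, the interquartile range was 143 µm wide.

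**Figure D1:**
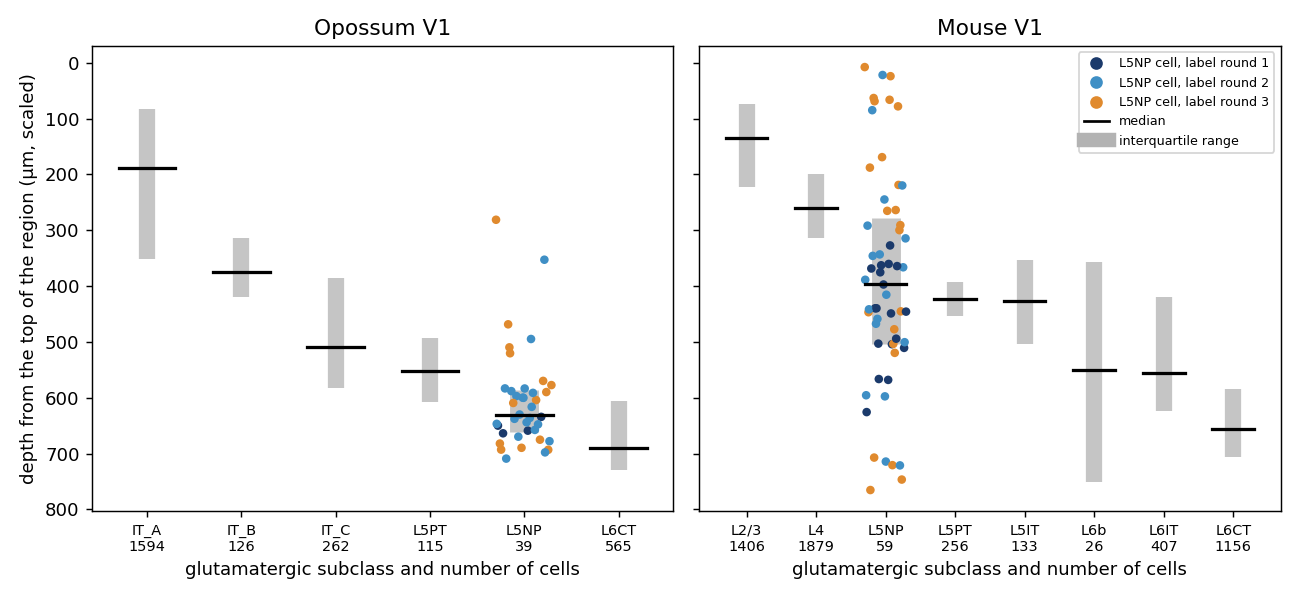
Depth of L5NP cells (points, coloured by the round in which the subclass label was given) beside the median (black line) and interquartile range (gray bar) of each glutamatergic subclass, with depth in µm scaled to the tallest V1 region of the species and the number of cells under each name. The opossum cells cluster between the L5PT and L6CT medians of 552 and 691 µm, and the mouse cells run from 7.83 to 765 µm.

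The spread in the mouse differed with how the label was reached. Labels were given in 3 rounds of decreasing stringency, in which 100%, 75% and then 50% of the atlas neighbours had to share the subclass. The 18 mouse cells labelled in round 1 had a median depth of 443 µm and an interquartile range of 370 to 504 µm. The 19 cells of round 2 had a median of 389 µm, and the 22 cells of round 3 had a median of 278 µm and an interquartile range of 101 to 497 µm. All 18 cells of round 1 lay between 327 and 626 µm, whereas the cells of round 3 ran from 7.83 to 765 µm. Round 3 held 37.3% of mouse L5NP cells, a larger share than in the other mouse subclasses except L6b (42.3%), where the shares were 8.98% to 26.3%. In the opossum the rounds held 4, 21 and 14 cells with median depths of 654, 630.0 and 597 µm, and the 14 cells of round 3 were 35.9% of the members.

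UMIs per cell ranked L5NP first in the opossum and near the end in the mouse. The opossum cells had a median of 1945 UMIs (interquartile range 1207 to 2263), the highest of the 6 glutamatergic subclasses, whose other medians ran from 1365 to 1894. The mouse cells had a median of 1234 UMIs (868 to 1657), the seventh of 8, where the others ran from 1205 to 1916. In both species the count fell with the label round, from 2438 to 1972 to 1501 in the opossum and from 1605 to 1106 to 993 in the mouse.

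The cells around L5NP cells were compared with all V1 cells and with those at the same depth. Here and below, the L5NP depth range and the same depth mean the interquartile range of L5NP depth. This was 586 to 661 µm in the opossum and 278 to 503 µm in the mouse. L5NP cells outside it stayed in the L5NP group, so the match of depth is partial. Among the 20 nearest labelled cells of each opossum L5NP cell, within a median reach of 54.0 µm, L6CT neurons took 24.6% of 780 neighbour places, against 12.4% of all labelled V1 cells and 17.5% of the 399 labelled cells inside the L5NP depth range. L5PT took 7.31%, against 2.52% in V1 and 10.3% at that depth, and oligodendrocytes took 16.7%, against 12.4% and 17.8%. Other L5NP cells took 39 of the 780 places, where they were 0.855% of cells in V1 and 4.76% at that depth. In the mouse, L4 neurons took 23.9% of 1180 places and L2/3 neurons 15.3%, against 36.1% and 9.08% of cells inside the L5NP depth range and 25.7% and 18.8% of all labelled V1 cells. Mouse L6CT took 13.5%, against 5.44% at that depth and 16.2% in V1, so these 3 shares lay nearer those of V1 as a whole. Mouse L5PT took 8.47%, against 3.42% in V1 and 11.8% at that depth, and other L5NP cells took 1.36%, against 1.5% at that depth. Neighbour places overlap between nearby L5NP cells, so these shares carry no interval. The nearest other L5NP cell was a median of 47.1 µm away in the opossum and 103 µm away in the mouse.

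Tshz2 was the most distinct marker of mouse L5NP cells, as a description of cells whose label was itself made from expression. The gene lies on chromosome 2, positions 169474613 to 169913736 of the plus strand of GRCm39, and is annotated as protein coding. Mouse L5NP cells held 98 Tshz2 UMIs in 38 of 59 cells, a level of 12.5 per 10000 (exact Poisson interval 10.1 to 15.2), against 0.340 in the 5263 cells of the other glutamatergic subclasses. The ratio was 36.7-fold (28.8 to 46.6), and the next highest glutamatergic subclass was L5PT at 0.589. In the 4 regions the L5NP level was 15.7, 6.86, 12.2 and 11.6, against 0.409, 0.287, 0.320 and 0.284 in the other subclasses, so no L5NP value overlapped the others. One cell held 23 of the 98 UMIs, and without it the ratio was 29.2-fold (22.2 to 37.9). The levels in the 3 label rounds were 17.4 (13.0 to 22.9), 8.23 (5.10 to 12.6) and 10.8 (6.97 to 15.9). Since the label was made from expression, the Tshz2 level of the widely spread round 3 cells is no independent support for their label.

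Nxph3 separated mouse L5NP cells less. It lies on chromosome 11, positions 95400671 to 95405533 of the minus strand, and is protein coding. Its 8 UMIs were found in 6 of 59 cells, a level of 1.02 (0.440 to 2.01), which was 2.60-fold (1.11 to 5.19) that of the other glutamatergic subclasses but below the minimum of 10 UMIs set for a call. L6b, at 1.64 (0.60 to 3.56), and L6CT, at 0.779 (0.658 to 0.916), had overlapping intervals. Oligodendrocytes, which should lack the gene, stood at 0.856 (0.668 to 1.08), so the Nxph3 level in mouse L5NP was not distinguishable from background at this depth. The log2 ratio, 1.38 over all cells, was 0.64 without region 1 and 0.74 without the L5NP cell that held most Nxph3 UMIs.

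In the opossum neither marker set the labelled cells apart. TSHZ2 had 0 UMIs in the 39 L5NP-labelled cells, which allows a level of up to 0.439 per 10000, and 0.127 in the other glutamatergic subclasses, so both lay under that limit and no ratio is given. The gene was counted elsewhere in the section, with 2636 UMIs in all and 78 UMIs in V1. How well its annotated 3′ end captures the transcripts of cortex was not tested, so the 0 limits counted molecules and not expression. NXPH3 had 6 UMIs in 6 cells, a level of 0.878 (0.322 to 1.91) and a ratio of 1.26-fold (0.457 to 2.77). L6CT held more NXPH3, at 2.37 (2.08 to 2.69), and oligodendrocytes held 1.10 (0.864 to 1.38). The NXPH3 level in the 3 regions was 1.59, 0.362 and 0.641, against 0.560, 0.697 and 0.990 in the other subclasses, so it was higher in 1 region alone. Without that region the log2 ratio was -0.78, and against the other glutamatergic cells at the depth of L5NP it was -0.74. The opossum cells are therefore called L5NP-labelled here, and are described by the genes that led them.

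**Figure D2:**
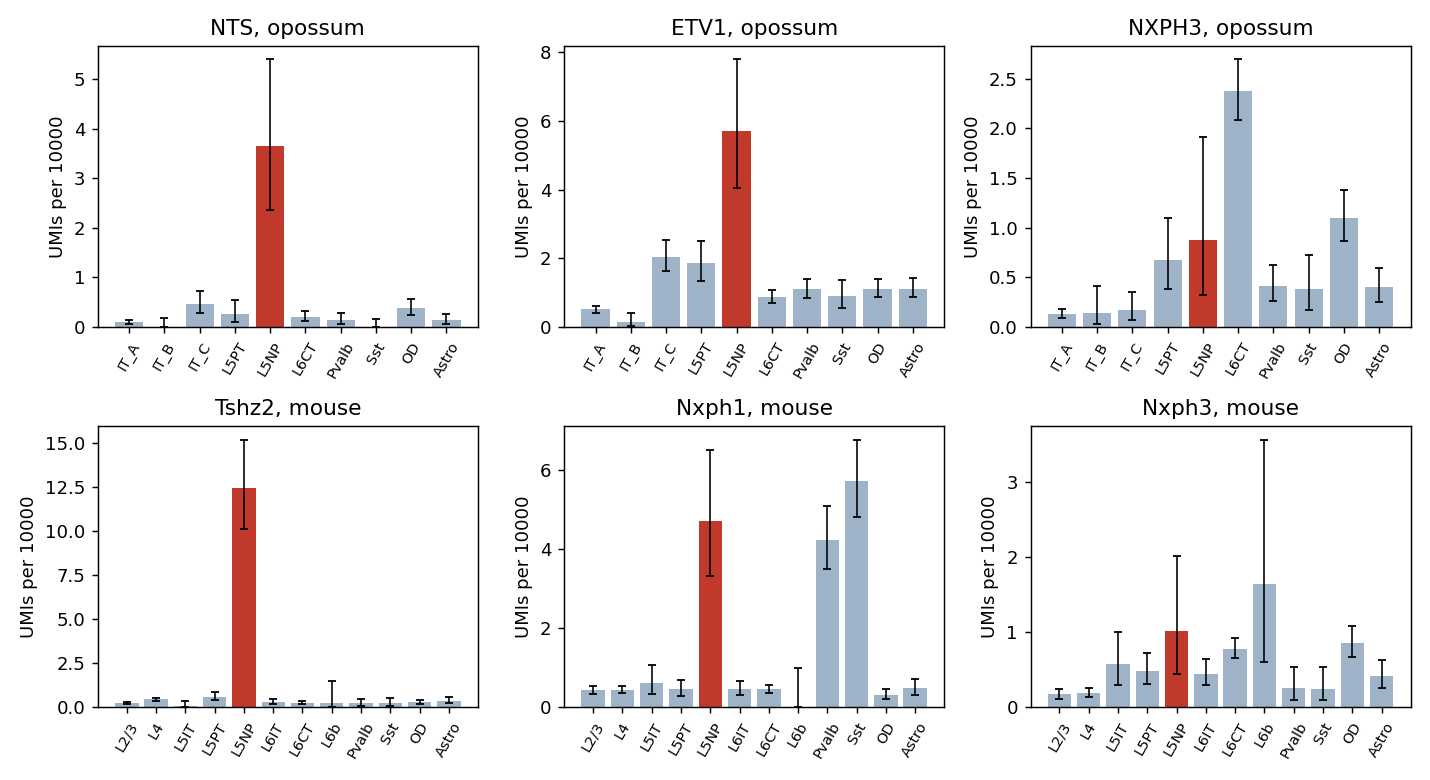
UMIs per 10000 (bars, with exact Poisson 95% intervals) of 3 genes in each species across V1 subclasses, with L5NP in red. NTS at 3.66 and ETV1 at 5.71 in the opossum and Tshz2 at 12.5 in the mouse lie above every other subclass shown, Nxph1 is shared with Pvalb and Sst interneurons, and NXPH3 is highest in L6CT in the opossum.

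A list of 12 genes named in mouse near-projecting neurons was then read in both species. A gene is called higher here when its level was at least 2 times that of the pooled other glutamatergic subclasses of at least 25 cells and the lower bound of the ratio was above 1, and lower when it was at most 1/2 with the upper bound below 1, among genes with at least 10 UMIs found or expected in L5NP. Over all genes measured, 6.73% of 2213 were higher in the mouse and 9.09% of 2036 in the opossum. Summed over the list, the level was 5.36 times (4.55 to 6.27) that of the other subclasses in the mouse and 3.60 times (2.80 to 4.57) in the opossum. Most of each sum came from 1 gene, with 98 of 166 mouse UMIs from Tshz2 and 39 of 72 opossum UMIs from ETV1. The members called higher in the mouse were Tshz2, Vwc2l (12.4-fold, 7.12 to 20.3), which encodes a secreted von Willebrand domain protein, the transcription factor Etv1 (2.13-fold, 1.18 to 3.53) and Lypd1 (2.14-fold, 1.02 to 3.97), a modulator of nicotinic receptors. In the opossum they were ETV1 (7.08-fold, 4.94 to 9.88) and MET (13.9-fold, 6.24 to 28.0), the receptor of hepatocyte growth factor. No other member reached the minimum, and several of those called reached it through their high L5NP count, so nothing is read from how many of them were called. Trhr and Sla2 had 0 UMIs in L5NP of both species, Met had 0 in the mouse, and TSHZ2 and LYPD1 had 0 in the opossum. Fezf2, Cpne7 and Htr2c, with 1 to 8 UMIs, stayed under the minimum in both. Mouse Slc17a8, a vesicular glutamate transporter, had 5 UMIs in 2 cells, at 47.4-fold (12.7 to 152) the other subclasses.

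A neuropeptide, a receptor and a transcription factor gene were among those that led the opossum L5NP-labelled cells. Across all genes measured, 185 were higher and 137 were lower (6.73% of 2036). Of the 185 higher genes 156 had a symbol, and 177 had a higher level in L5NP than in any other glutamatergic subclass. The genes were picked for a high ratio to those same subclasses, so the count of 177 follows in large part from the choice. Of the 185, 65 stayed higher when each gene was recounted without the L5NP cell that held most of its UMIs, a recount added after the values were seen. Such a recount tends to lower the ratio of every gene called higher. A lost call can therefore reflect a ratio near the limit as well as dependence on 1 cell. The count of higher genes was 119 of 1096 measured without region 2, and 55 of them were among the 185. That of lower genes was 79 of 1206 measured without region 1 and 81 of 1096 without region 2.

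NTS, the precursor of the neuropeptide neurotensin, had the highest ratio by its lower bound. It had 25 UMIs in 13 of 39 cells, a level of 3.66 (2.37 to 5.40) against 0.165, or 22.2-fold (13.4 to 35.5). The region levels were 7.55, 1.81 and 0.641, against 0.192, 0.189 and 0.0604, and 19 of the 25 UMIs came from region 1. The next highest glutamatergic subclass was IT_C, intratelencephalic neurons at a median depth of 508 µm, at 0.462. ETV1, an ETS-family transcription factor of layer 5, had 39 UMIs in 19 cells, more cells than NTS, and stood at 6.36, 7.25 and 1.92 in the regions against 0.840, 0.935 and 0.483. MET had 10 UMIs in 6 cells, of which 7 came from region 1.

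The other leading opossum genes had various roles. NXPH2, a neurexophilin like NXPH3, had 16 UMIs in 7 cells and was 6.75-fold higher (3.76 to 11.3), with 1, 11 and 4 UMIs in the regions. Its level of 2.34 (1.34 to 3.8) was near that of Sst interneurons, at 2.43 (1.84 to 3.14), and whether interneuron RNA took part in it was not tested. DCC, the receptor of the guidance cue netrin, had 41 UMIs in 10 cells, 5.22-fold (3.70 to 7.19), but 19 of the UMIs lay in 1 cell, and without it the ratio was 2.92-fold (1.81 to 4.47). TMEM163, a zinc transporter of vesicles, had 21 UMIs in 5 cells, 14.1-fold (8.34 to 22.9), with 12 in 1 cell and 0 in region 3, and without that cell it was 6.32-fold (2.80 to 12.5). SCAI, a transcriptional cofactor, was 7.74-fold higher (5.07 to 11.4), TNS1, which encodes the focal adhesion protein tensin, 8.48-fold (4.47 to 14.9), and UST, a sulfotransferase of the extracellular matrix, 8.20-fold (4.21 to 14.7). ARHGAP22, a GTPase-activating protein, was 5.81-fold higher (3.69 to 8.77), the junction protein gene PKP1 6.39-fold (3.56 to 10.7), and the feature ENSMODG00000036492, which has no symbol in the files, 16.3-fold (7.85 to 31.3).

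Part of these ratios went with depth. Against only the 187 other glutamatergic cells inside the interquartile depth range of L5NP, NTS was 7.61-fold (3.99 to 14.8) and ETV1 2.40-fold (1.60 to 3.54). MET was 6.09-fold (2.22 to 16.9) and NXPH2 3.25-fold (1.63 to 6.25), and each of these genes was still called higher. DCC was 5.91-fold (3.71 to 9.44) there. In the opossum 35 of 39 L5NP-labelled cells had a UMI of at least 1 of NTS, ETV1, MET, NXPH2, TMEM163 and DCC, against 23.7% of the other glutamatergic cells, and 20 had at least 2 of them, against 3.49%. No L5NP-labelled cell had more than 3 of the 6. The 6 genes were chosen for their high ratios in these same cells, so higher shares followed from the choice. The L5NP-labelled cells also had more UMIs, with a median of 1945 against 1481.5. These shares are a description and no support for the label.

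The opossum genes with the lowest upper bounds of the ratio also had various roles. ARHGAP26, a GTPase-activating protein, had 1 UMI in L5NP against 20.5 expected, a ratio of 0.0489 (0.00124 to 0.273), and SNTG1, a syntrophin, had 1 against 19.7 expected, 0.0508 (0.00129 to 0.284). DPP10, an auxiliary subunit of potassium channels, also had 1 UMI, at 0.0640 (0.00162 to 0.357), as did ENSMODG00000051473, at 0.0549 (0.00139 to 0.306). NRXN3, a presynaptic neurexin, had 29 UMIs and a level of 4.24 against 18.1, or 0.235 (0.157 to 0.337), and lay below the other subclasses in all 3 regions, though 13 of the UMIs lay in 1 cell. KCTD16, an auxiliary subunit of GABA-B receptors, was at 0.187 (0.0855 to 0.356). Apart from ARHGAP26, these genes had their highest glutamatergic level in IT_B, intratelencephalic neurons at a median depth of 375 µm.

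In the mouse, Tshz2 and Nxph1 had the highest lower bounds of the ratio. Of 2213 genes measured, 149 were higher and 76 (3.43%) were lower. Of the 149, 135 had a higher level in L5NP than in any other glutamatergic subclass, which again follows in large part from the choice. Here 45 of the 149 stayed higher without the L5NP cell that held most UMIs of the gene. Nxph1, a neurexophilin, had 37 UMIs in 18 of 59 cells, a level of 4.71 (3.32 to 6.49) against 0.448, or 10.5-fold (7.27 to 14.8). The region levels were 7.84, 6.86, 2.16 and 2.17, against 0.508, 0.405, 0.386 and 0.440, and the groups did not overlap. Sst and Pvalb interneurons also carried Nxph1, at 5.73 and 4.23. The GABAergic markers summed to 0.958 times (0.769 to 1.18) the other glutamatergic cells at the same depth. Whether interneuron RNA took part in the Nxph1 level was not tested.

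The other leading mouse genes had smaller ratios. Adcy2, an adenylyl cyclase, had 41 UMIs in 14 cells, 4.33-fold (3.09 to 5.92), and Dcc 42 UMIs in 16 cells, 4.07-fold (2.91 to 5.54). Dcc stood at 7.10, 7.84, 2.16 and 4.34 in the regions against 1.39, 1.63, 1.07 and 1.16. Olfm3, a secreted olfactomedin, was 5.06-fold (3.05 to 7.93), Sh3rf3, a ubiquitin ligase, 4.18-fold (2.56 to 6.46), Fam169a 4.04-fold (2.41 to 6.39), and Kirrel3, a synaptic adhesion protein, 3.42-fold (2.27 to 4.95), or 2.02-fold (1.17 to 3.26) without 1 cell that held 12 of its 29 UMIs. Tmem230 was 4.33-fold (2.05 to 8.12) and Ero1l, an oxidase of the endoplasmic reticulum, 3.75-fold (2.03 to 6.38). Mgat4c, a glycosyltransferase, was 3.44-fold (2.25 to 5.05), but 14 of its 27 UMIs lay in 1 cell, and without it the ratio was 1.72-fold (0.909 to 2.95) and the call was lost. Vwc2l had 18 UMIs in 7 cells, all in regions 1 and 4. In the mouse 55 of 59 cells had a UMI of at least 1 of Tshz2, Nxph1, Vwc2l, Dcc and Adcy2, against 28.5% of the other glutamatergic cells, and 30 had at least 2 of them, against 4.43%. These genes were likewise chosen for high ratios in the same cells, so the shares are a description only. The depth range changed these ratios to a varying degree. Against the 1335 other glutamatergic cells inside it, Tshz2 stood at 29.6-fold (21.9 to 40.04) and Nxph1 at 9.62-fold (6.41 to 14.2). Vwc2l was 6.59-fold (3.70 to 11.2) there, Olfm3 3.56-fold (2.11 to 5.70) and Kirrel3 2.31-fold (1.52 to 3.38). Dcc, at 4.10-fold (2.89 to 5.70), hardly changed, and Mgat4c rose to 4.44-fold (2.84 to 6.71).

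Cntn5 and Dpp10 were among the mouse genes with the lowest upper bounds of the ratio. Cntn5, a contactin, had 0 UMIs in L5NP against 12.8 expected, at least 4.27-fold lower when set against a limit of 3 UMIs over the group. Dpp10 had 35 UMIs, a level of 4.46 against 15.2, or 0.293 (0.204 to 0.408), and lay below the other subclasses in all 4 regions. Cdh12, a cadherin, was at 0.145 (0.0176 to 0.526), Lingo2, a leucine-rich repeat protein, at 0.256 (0.103 to 0.528), Nrg1, a neuregulin, at 0.294 (0.152 to 0.514), and the proteasome subunit gene Psma6 at 0.0994 (0.00251 to 0.555), from 1 UMI.

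Gene families of the synapse are given beside all genes measured, of which 9.09% were higher and 6.73% lower in the opossum and 6.73% were higher and 3.43% lower in the mouse. No difference between the species was tested. Among neurexophilins, neurexins and neuroligins, 1 of 4 measured opossum genes was higher (NXPH2) and 2 were lower (NRXN3 and NLGN1), and 1 of 6 mouse genes was higher (Nxph1). The median log2 ratios of these, computed with 0.5 UMIs added to both sides, were -0.28 and -0.17, beside 0.16 and 0.13 over all opossum and mouse genes measured. The neurexophilins called could not be compared between the species. Nxph2 had 0 UMIs in mouse L5NP and 27 in mouse V1, and no opossum feature was named NXPH1, so that gene was not analysed here.

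Of glutamate receptor genes 3 of 13 were lower in the opossum (GRIA1 at 0.271, GRIA4 at 0.287 and GRIN2B at 0.195), with a median log2 ratio of -0.41, and 1 of 13 was higher in the mouse, the kainate receptor subunit Grik3, at 2.79-fold (1.51 to 4.73), with a median of 0.17. Of GABA-A receptor subunits 1 of 5 was lower in the opossum (GABRA2, 0.324) and 1 of 6 was higher in the mouse (Gabrg3, 2.40-fold). Receptors for modulators were mostly under the minimum, with 1 and 2 genes measured, of which CHRNB2 (0.314) was lower in the opossum.

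Channel genes are read against the 6.73% of all genes that were lower in the opossum and the 3.43% in the mouse. Of potassium and HCN channel genes, 4 of 8 were lower in the opossum (KCND2, KCND3, KCNH1 and KCNQ5, from 0.206 to 0.381) and 2 were higher, KCNAB1 (3.70-fold) and KCNMB4 (2.16-fold), though 10 of the 11 UMIs of KCNMB4 lay in 1 cell. In the mouse 2 of 13 were lower (Kcnb2 at 0.345 and Kcnq5 at 0.456). The medians were -0.77 and -0.32 on the log2 scale. Of sodium and calcium channel genes 4 of 12 were lower in the opossum (CACNA1C, CACNA1E, CACNA2D3 and CACNB4, from 0.0988 to 0.489) and SCN2B was higher at 2.88-fold, while in the mouse 1 of 12 was lower (Cacna2d1, 0.340). The medians were -0.67 and -0.29, beside 0.16 and 0.13 over all genes.

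Adhesion and guidance lists held genes of both directions. Of cadherins, CDH10 (2.58-fold) was higher and CDH8 (0.422) and CDH12 (0.295) were lower among 6 in the opossum, and Cdh18 (2.07-fold) and Pcdh17 (2.96-fold) were higher and Cdh12 and Pcdh15 (0.309) lower among 10 in the mouse. Of axon guidance genes DCC was higher and EFNA5 (0.355) and UNC5D (0.215), the latter a netrin receptor like DCC, were lower among 10 in the opossum, and Dcc and Sema6d (2.31-fold) were higher and Unc5d (0.391) lower among 9 in the mouse. So DCC was higher and UNC5D lower in both species.

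Among transcription factors of deep layers, 3 of 11 were higher in the opossum (ETV1, BCL11B at 3.00-fold and TLE4 at 2.05-fold), and 2 of 8 were higher in the mouse (Tshz2 and Etv1). Of upper-layer intratelencephalic genes CUX2 (0.393), RASGRF2 (0.466) and CALB1 (0.483) were lower in the opossum, whereas 0 of 1 measured passed in the mouse. Of calcium-binding and calmodulin-binding genes PCP4L1 (2.15-fold) was higher and CALB1 and PPP3CA (0.352) were lower among 8 in the opossum, with 0 of 16 in the mouse. No synaptotagmin and no neurofilament gene passed in either species. Among neuropeptides and granins 1 of 9 opossum genes, CRH, was lower at 0.0725, from 1 UMI, and 0 of 9 mouse genes passed. Of the lists of layer 4 and layer 5 intratelencephalic genes none passed in either species, with at most 1 gene measured in each.

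Some markers of neighbouring neuron types had higher levels. Of L5PT genes BCL11B was called higher in the opossum and Crym, a thyroid hormone binding protein, in the mouse (2.52-fold), and no other member reached the minimum. Summed over the list the L5PT genes were 2.07 times (1.51 to 2.76) and 1.72 times (1.29 to 2.26) the other subclasses, but 1.24 times (0.882 to 1.71) and 1.28 times (0.955 to 1.69) the cells at the same depth. In the mouse 29 of the 53 UMIs in this sum were Crym, which is also a member of the L6CT list. Crym stood at 2.49 in mouse L6CT and 1.75 in mouse L5PT. L6CT genes summed to 0.842 times (0.629 to 1.11) the cells at that depth in the opossum and 1.85 times (1.49 to 2.28) in the mouse, where 6 of the 9 members were measured and Crym alone was called. L6b genes, of which Ctgf was called at 3.70-fold (1.83 to 6.72), summed to 2.44 times (1.46 to 3.87) in the mouse. Their part in the L5NP values was not tested.

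Markers of glia and interneurons were summed in the same way. Oligodendrocyte genes summed to a level of 40.6 to 53.6 per region in opossum L5NP, against 30.5 to 33.6 in the other subclasses, with CNP at 0, and to 20.2 to 29.1 against 19.7 to 26.7 in the mouse. In the opossum this was 1.42 times (1.27 to 1.59) the other subclasses and 1.21 times (1.07 to 1.37) those at the same depth. The myelin gene MBP stood at 33.6 in opossum L5NP, below L6CT at 38.4 and oligodendrocytes at 71.2. GABAergic genes summed to 1.26 times (1.02 to 1.53) the other subclasses in the opossum and 1.00 times (0.804 to 1.24) at the same depth, with Dlx1 at 0, and in the mouse Dlx6 and Lhx6 were at 0. Astrocyte genes stood at 1.15 times (1.01 to 1.30) and 0.894 times (0.761 to 1.04). Microglial, vascular and oligodendrocyte precursor genes had 5, 5 and 0 UMIs in opossum L5NP and 9, 20 and 7 in mouse L5NP. Microglial genes were 1.38 times (0.445 to 3.28) the other subclasses in the opossum and 0.491 times (0.224 to 0.934) in the mouse, and vascular genes 0.393 times (0.127 to 0.921) and 1.25 times (0.762 to 1.94). None of these markers was called in either species, and their part in the L5NP values was not tested. Of the general glutamatergic genes 0 of 6 were higher in the opossum and 0 of 6 passed in the mouse.

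A further deposited label met the subclass label in part. In the mouse a second label, the cell type, read L5NP in 67 V1 cells, of which 38 were among the 59 members, while 16 members had no type and 5 had another. The 38 cells with both labels had a median depth of 444 µm (interquartile range 363 to 504) and a Tshz2 level of 13.6 (10.7 to 17.0). The 21 members without it had a median depth of 245 µm (69.0 to 445) and a Tshz2 level of 9.98 (6.39 to 14.8). The 29 cells with the type label alone had a Tshz2 level of 0.945 (0.257 to 2.42), with Nxph1 at 4.25 (2.52 to 6.72). Tshz2 was thus higher with the subclass label than with the type label alone, which is a description since the labels were made from expression. Members without the type label reached shallower depths than those with it. In the opossum the second label is a cluster number, and cluster 9 held 26 of the 39 members among its 37 cells. This cluster was chosen because it holds most members, and the files do not say that it is an L5NP type. A supplementary caption of the paper gives another cluster number for L5NP, and whether the numbering is the same was not tested. Members in cluster 9 had a median depth of 635 µm and an NTS level of 4.57 (2.89 to 6.85), and the other 13 had 604 µm and 1.11 (0.135 to 4.02). The 11 cells of cluster 9 outside the subclass had NTS at 1.33 (0.162 to 4.82) and ETV1 at 4.67 (1.88 to 9.62).

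**Figure D3:**
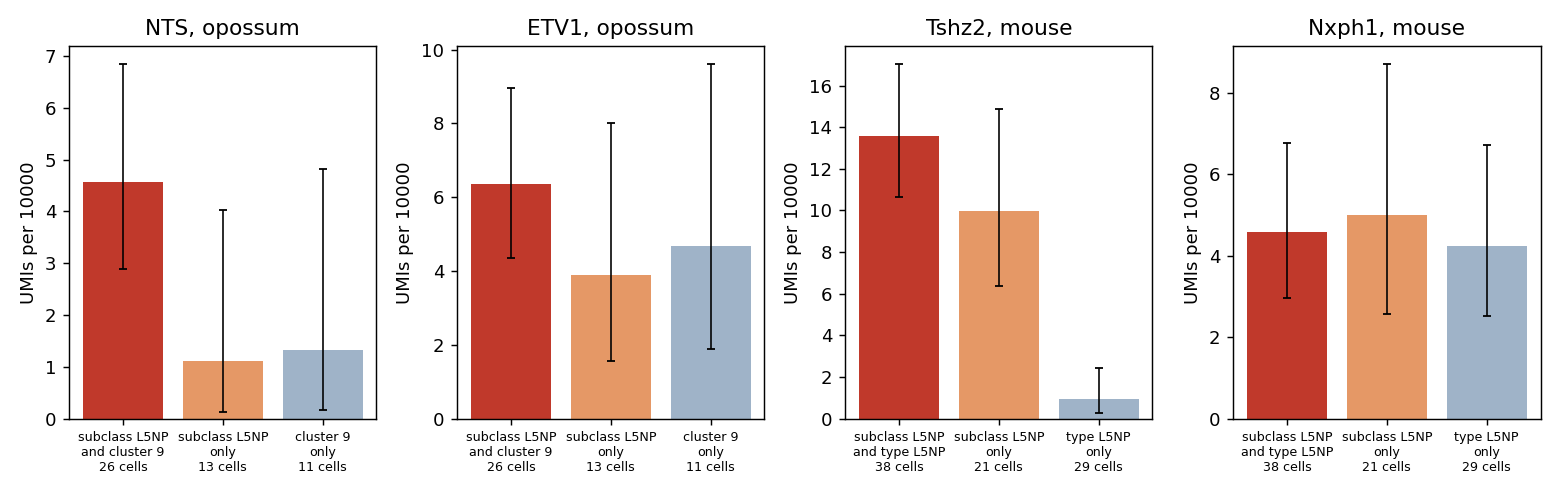
UMIs per 10000 (bars, with exact Poisson 95% intervals) of 2 leading genes per species in cells that carry both deposited labels, the L5NP subclass label only, or the second label only, with the number of cells under each bar. Tshz2 falls to 0.945 in the 29 mouse cells with the type label only, while Nxph1 stays at 4.25.

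Most UMIs of the leading genes lay outside the labelled cells. L5NP held 0.627% of the UMIs of mouse V1 but 19.2% of its 511 Tshz2 UMIs, and 24 of the 90 cells with at least 2 Tshz2 UMIs and 9 of the 16 with at least 3. In the opossum, L5NP-labelled cells held 0.986% of V1 UMIs, 17.9% of the 140 NTS UMIs, 12.7% of the 79 MET UMIs and 5.64% of the 692 ETV1 UMIs. The share of cells with a Tshz2 UMI was 64.4% (50.9 to 76.4) in mouse L5NP, 3.86% in the other glutamatergic subclasses and 3.48% in oligodendrocytes and astrocytes, at median depths of 1234, 1342 and 1294 UMIs. When each cell was thinned to 300 UMIs the shares were 32.2% (20.6 to 45.6), 0.710% and 0.686%. For NTS in the opossum they were 33.3% (19.1 to 50.2), 1.88% and 2.45% before and 13.2% (4.41 to 28.1), 0.464% and 0.585% after thinning. Thinning left out 1 of the 39 opossum members and 0 of the 59 mouse members, and 78 and 51 of the other glutamatergic cells. In both species the shares in the other glutamatergic cells lay near those in glia, which should lack these genes.

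Levels were also compared in the cells next to L5NP cells. NTS stood at 1.42 (0.866 to 2.19) in the 91 opossum cells within 20 µm of an L5NP-labelled cell, at 0.418 (0.282 to 0.597) between 20 and 50 µm, and at 0.319 (0.170 to 0.545) in cells of the same depth farther away. For ETV1 the values were 2.62 (1.85 to 3.61), 1.91 (1.60 to 2.26) and 2.23 (1.8 to 2.74), with overlapping intervals for the nearest and farthest cells. In the mouse Tshz2 stood at 0.450 (0.252 to 0.742), 0.417 (0.324 to 0.528) and 0.397 (0.325 to 0.480), so no step near L5NP cells was detectable. Nxph3, in contrast, stood at 0.900 (0.607 to 1.29), 0.465 (0.367 to 0.582) and 0.322 (0.258 to 0.398), close beside L5NP cells at the level of the L5NP cells themselves. NTS in the opossum and Nxph3 in the mouse thus had higher levels next to L5NP cells than in the farther cells. Only the farther cells were limited in depth, so the sets can differ in depth and subclass as well as in nearness. Mouse L6CT, with Nxph3 at 0.779, took 13.5% of the L5NP neighbour places but was 5.44% of cells at the same depth. What lay behind the higher levels was not tested.

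Genes of shared symbol were then set side by side. Of 10535 symbols present in both species, 872 were measured in L5NP of both. Of these, 33 were higher in opossum L5NP, 34 were higher in mouse L5NP and 6 were higher in both (0.688%), which is 18.2% of the opossum and 17.6% of the mouse genes. The 6 were DCC, ETV1, TMEM230, RBM42, an RNA-binding protein, CNIH3, an auxiliary subunit of AMPA receptors, and CLOCK, a circadian transcription factor. DCC was the only one still higher in both when each gene was recounted without its highest L5NP cell. CNIH3, CLOCK and RBM42 had ratios of 2.16-fold to 2.63-fold in both species, from 10 to 19 UMIs each. Against the other glutamatergic cells at the same depth 4 of the 6 remained, without ETV1 and CNIH3, and mouse Etv1 stood there at 1.40-fold (0.772 to 2.35).

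Lower in both were 7 symbols (0.803%), of 72 lower in the opossum and 34 in the mouse, which is 9.72% and 20.6%. They were DPP10, UNC5D, CDH12, the potassium channel gene KCNQ5, the neurotrophin receptor gene NTRK3 (0.199 in the opossum and 0.433 in the mouse), R3HDM1 (0.369 and 0.461) and XKR4 (0.362 and 0.262). Across the 872 symbols Pearson's r of the log2 ratios was 0.14, given as a description, since genes are not independent replicates and low counts add noise to every ratio.

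**Figure D4:**
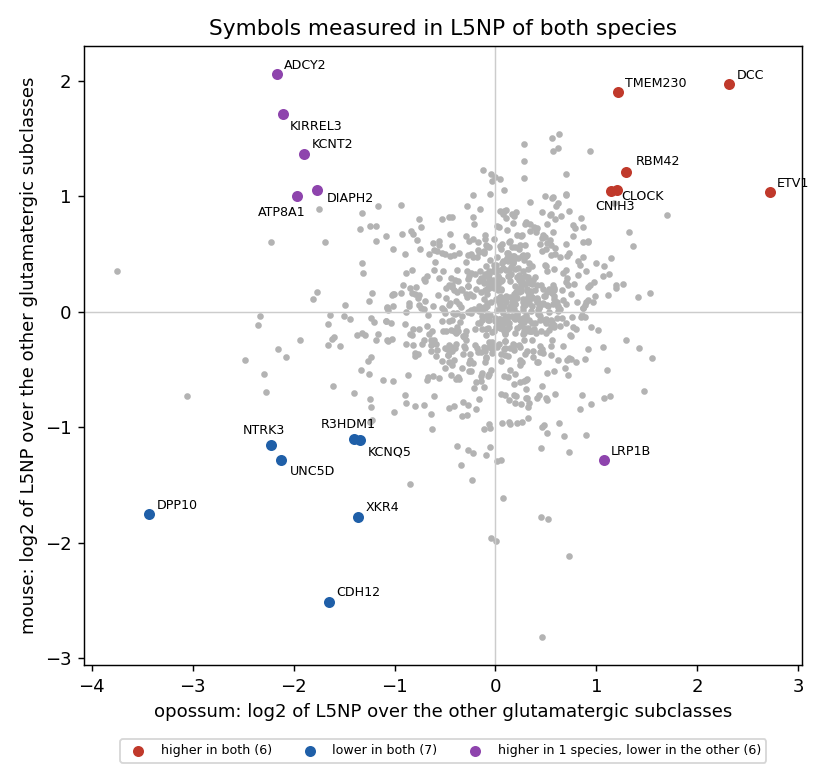
Log2 ratio of the level in L5NP to that in the other glutamatergic subclasses, in the opossum (horizontal axis) and the mouse (vertical axis), for 872 symbols measured in both, with 0.5 UMIs added to the found and expected counts. Coloured symbols were called in both species, and DCC lies far from 0 on both axes at 5.22-fold and 4.07-fold.

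Apart from DCC, no leading gene of one species was among the leading genes of the other. ETV1, which led in the opossum, was still called higher in the mouse, at 2.13-fold (1.18 to 3.53). TMEM230, which led in the mouse, was called higher in the opossum, at 2.48-fold (1.17 to 4.63). Many of the other leading genes had too few molecules in the other species for a ratio. Of the leading mouse genes, opossum L5NP-labelled cells held 0 UMIs of TSHZ2, OLFM3 and MGAT4C and 2 of VWC2L, where 0.867, 2.85, 1.16 and 0.425 were expected, and ADCY2 was lower at 0.210 (0.0768 to 0.457). SH3RF3 stood at 1.55-fold (0.703 to 2.98) and FAM169A at 1.43-fold (0.292 to 4.28). Of the leading opossum genes, mouse L5NP cells held 1 UMI of Nts and of Tmem163 and 0 of Met, Nxph2, Tns1, Arhgap22 and Pkp1, where 0.0633 to 1.00 UMIs were expected, so a difference was not detectable at this depth. Among symbols measured in both and higher in the opossum, those lowest in the mouse after LRP1B were FAR1 (0.578, 0.232 to 1.20), RNF10 (0.586, 0.235 to 1.21), SGCZ (0.615, 0.336 to 1.03), CAND1 (0.692, 0.277 to 1.43) and RMND5A (0.748, 0.322 to 1.48). Among those higher in the mouse and not called in the opossum, LSAMP, a cell adhesion gene, was the lowest there, at 0.854 (0.540 to 1.29).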

How the data were processed

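Per the labels and methods, the authors aligned the Stereo-seq reads with the Stereo-seq Analysis Workflow, the mouse to GRCm39 and the opossum to a custom Ensembl reference with 3′ ends extended by 5 kb, segmented cells and removed cells under 50 genes or 100 UMIs. They deposited UMI counts per cell, cell positions, V1 membership and labels. Here UMIs were summed over the cells of a subclass. Depth was the distance from the top of each V1 region, scaled to the tallest region, at 2 coordinate units per µm. Levels carry exact Poisson intervals, ratios exact conditional binomial intervals, shares Clopper-Pearson intervals and medians order-statistic intervals, computed in Python 3.11.15 with numpy 2.4.6, scipy 1.17.1 and pandas 2.3.3 and drawn with matplotlib 3.10.9. The call rule was run on simulated counts drawn with Poisson error alone. These lack the clumping of UMIs in single cells, so that run cannot show how the rule performs on these data. The members and gene lists were chosen with earlier results of these data known. Named genes were the markers, list members called, per species the 12 with the highest lower bound and the 6 with the lowest upper bound, symbols called in both species, and the 6 higher in one species with the lowest ratio in the other; values outside the rule are named as list members or for comparison between species. Alternatives were unscaled depth, a minimum of 200 genes and 300 UMIs per cell, the first and second label rounds, all class labels, each region left out, equal weights, matched depth, thinning, and other minima and folds. Since the labels were made from expression, gene levels are not independent of them. Results that need 1 gene of the lists are not reported here.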

Additional observations from a re-analysis of the deposited data

Results flagged for a closer look

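Of the symbols measured in L5NP of both species, 6 were called higher in one species and lower in the other. The difference between the species was not tested, since each species is 1 animal. ADCY2, an adenylyl cyclase, stood at 0.210 times the level of the other opossum glutamatergic subclasses but 4.33 times that of the mouse ones, and KIRREL3, a synaptic adhesion gene, at 0.220 and 3.42. The potassium channel gene KCNT2 stood at 0.247 and 2.69, the lipid flippase gene ATP8A1 at 0.235 and 2.04, and the formin gene DIAPH2 at 0.264 and 2.18. LRP1B, a lipoprotein receptor gene, ran the other way, with 2.11 for the opossum and 0.401 for the mouse.

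Without the L5NP cell that held most UMIs of the gene, ADCY2, KIRREL3 and KCNT2 kept both calls, at 3.29, 2.02 and 2.31 times in the mouse. ATP8A1 and DIAPH2 were no longer called higher in the mouse, at 1.72 and 1.47 times, and LRP1B, with 43 of its 141 opossum UMIs in 1 cell, was no longer called higher in the opossum, at 1.54 times. Against the other glutamatergic cells at the depth of L5NP, the mouse call of KCNT2, the opossum call of ATP8A1 and the opossum call of LRP1B were lost, at 1.96, 0.438 and 1.86 times.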

How the results depend on the processing

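The counts of genes called moved most. With each cell thinned to 300 UMIs, 11 opossum genes were higher and 4 lower among 119 measured. In the mouse 21 were higher and 3 lower among 255 measured, and 0 shared symbols were higher in both species. Of these higher genes, 2 in the opossum and 4 in the mouse were also called higher without thinning. With a minimum of 20 UMIs, 33 opossum genes were higher and 57 lower, and 27 mouse genes were higher and 20 lower. In that setting 1 shared symbol was higher in both. With no minimum the counts were 664, 292, 750, 207 and 20 in the same order. These 2 settings measured 775 and 24113 opossum genes and 861 and 36826 mouse genes. The counts therefore changed along with the number of genes measured. At a fold of 1.5 in place of 2, 294 opossum and 249 mouse genes were higher. Without the L5NP cell that held most UMIs of each gene, an alternative chosen after seeing the data, 65 opossum genes, 45 mouse genes and 1 shared symbol were higher. With equal weight for the other subclasses, 3 shared symbols were higher in both. Leaving out each V1 region gave 119 to 164 opossum genes higher and 79 to 122 lower, from 1096 to 1516 measured. In the mouse it gave 109 to 141 higher and 51 to 64 lower, from 1323 to 1909 measured. Of the 185 opossum genes higher over all regions, 81, 55 and 110 stayed called without regions 1, 2 and 3. Of the 149 mouse genes, 60, 104, 94 and 62 stayed called without regions 1, 2, 3 and 4. Genes that fell under the minimum of 10 UMIs count as not called. The mouse share of L5NP was 0.829% with the labels of the first and second rounds. The opossum log2 ratio of NXPH3, 0.33 over all cells, was -0.74 against cells at the depth of L5NP and ran from -0.78 to 0.81 with each region left out. The cause was not tested. The mouse log2 ratio of Tshz2 ran from 5.18 to 5.24 with each region left out and stayed between 4.87 and 5.29 under the other alternatives. Leaving out each region moved the median depth to between 602 and 635 µm in the opossum and between 389 and 440 µm for mouse cells. The mouse log2 ratio of Nxph3, 1.38 over all cells, was 0.34 when thinned, from 1 UMI, and 0.74 with equal weights, and ran from 0.64 to 1.66 with each region left out. The mouse interquartile range of depth was 143 µm with the labels of the first and second rounds. In all, 86 alternative values stayed within a set limit, 25 moved past it and 2 reversed. The limit was the counting interval, 1.5 times for counts, and the standard deviation over the regions for the interquartile range of depth. In the mouse that last limit was wide, at 62.4 to 388 µm around 225 µm. A ratio of TSHZ2 in the opossum could not be given under any setting, since 0 UMIs were found and 0.867 expected. Few cells and shallow counts limit every ratio. No paired analysis was possible because each species is 1 sample.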
